A study of Mus musculus with 6 samples.

Results

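Microglia identity genes are the genes by which the resident macrophages of the brain are recognised in RNA data, and they were followed here in mouse brain after transient occlusion of the middle cerebral artery. The set was 33 listed gene symbols taken from knowledge of the cell type, but chosen with earlier results of these data known. Of these symbols, 32 matched a row among the 56826 rows of the deposited expression table, of which 23473 carried a gene symbol. Spi1 had no row under that symbol. Total RNA, depleted of ribosomal RNA, was sequenced from adult male C57BL/6 mice aged 8 to 9 weeks. In the ischemia/reperfusion group (3 libraries) a silicone-coated filament closed the right middle cerebral artery for 1 h and was then withdrawn for 6 h of reperfusion. The sham group (3 libraries) had the same surgery under the same chloral hydrate anaesthesia without the filament. The labels name the tissue as brain without giving the hemisphere or region, and are silent on whether each library is another animal. The p-values therefore reflect the scatter among these 6 libraries, which may be technical.

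Microglia derive from yolk sac progenitors, are maintained through the receptor for Csf1 and Il34, and survey the tissue through receptors for nucleotides and for the neuronal chemokine fractalkine. Their identity is set by the lineage factors PU.1 (the product of Spi1), Irf8 and Runx1 and by Sall1, a zinc finger factor that separates microglia from other macrophages. Many members that signal inside the cell, such as Ptprc, Lyn, Vav1, Laptm5, Itgam, Tyrobp and Fcer1g, are also transcribed by blood leukocytes, and Mertk is also transcribed by astrocytes. In whole tissue, fewer cells of a type and less RNA per cell cannot be told apart.

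The 6 libraries held 45425867 to 49686109 counts. Markers of neurons (9 of 9 with counts) summed to 1532 to 1804 RPKM (the count scaled to 1 kilobase of the row and 1e+06 counts of the library) in ischemia/reperfusion libraries and 1656 to 1724 RPKM in sham libraries, so the labelled tissue was checked by these genes. All 32 members passed the low-count filter, with 46 counts or more in every library. Oligodendrocyte markers stood apart in ischemia/reperfusion replicate 3, and their sums ran from 918 to 2521 RPKM in ischemia/reperfusion libraries and from 1091 to 1416 RPKM in sham libraries.

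After ischemia and reperfusion, the log2 fold change was above 0 in 24 of 32 members, as it was in 44.2% of gene-symbol rows and 53.1% of all rows tested. Its median over the members was 0.26, against −0.04 over gene-symbol rows and 0.02 over all rows. The highest values belonged to the fractalkine receptor Cx3cr1, the calcium-binding protein Aif1 (known as Iba1), the transcription factor Sall1 and the lysosomal protein Cd68. The purinergic receptors P2ry12 and P2ry13 and the protease Ctss, which are widely used as microglial markers, had log2 fold changes near 0 (0.11, −0.05 and −0.04). The surface protein Tmem119, another such marker, was at 0.19 ± 0.24 (SE), with groups that overlapped. In edgeR's quasi-likelihood test with Benjamini-Hochberg adjustment over all 40170 rows, 0 members passed an adjusted p of 0.05, and 0.00249% of all rows did.

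Below that threshold, 11 of 32 members (34.4%) were higher at an unadjusted p under 0.05 and 0 were lower, where 6.39% of gene-symbol rows were higher and 8.71% lower (8.73% and 6.90% of all rows). In 12 of 32 members every ischemia/reperfusion library lay above every sham library, which held for 10.3% of gene-symbol rows and 14.0% of all rows. In 0 members every one lay below, which held for 8.79% of gene-symbol rows and 6.99% of all rows. The number of members higher at an unadjusted p under 0.05 was 7 when ischemia/reperfusion replicate 2 was left out, 6 when its replicate 3 was, 5 when sham replicate 1 was left out and 6 when sham replicate 3 was. DESeq2, run on the same counts, called 2 members higher at an adjusted p of 0.05, Cx3cr1 and Sall1, and 0 lower. It called 0.885% of gene-symbol rows higher and 0.641% lower (1.10% and 0.707% of all rows). The authors' deposited table lists 17 of 32 members higher and 1 lower, Fcgr3, at a q-value under 0.05, where it lists 19.5% of gene-symbol rows higher and 15.7% lower (14.7% and 9.77% of all rows). How the authors' deposited table was tested is not stated in these sources.

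**Figure D1:**
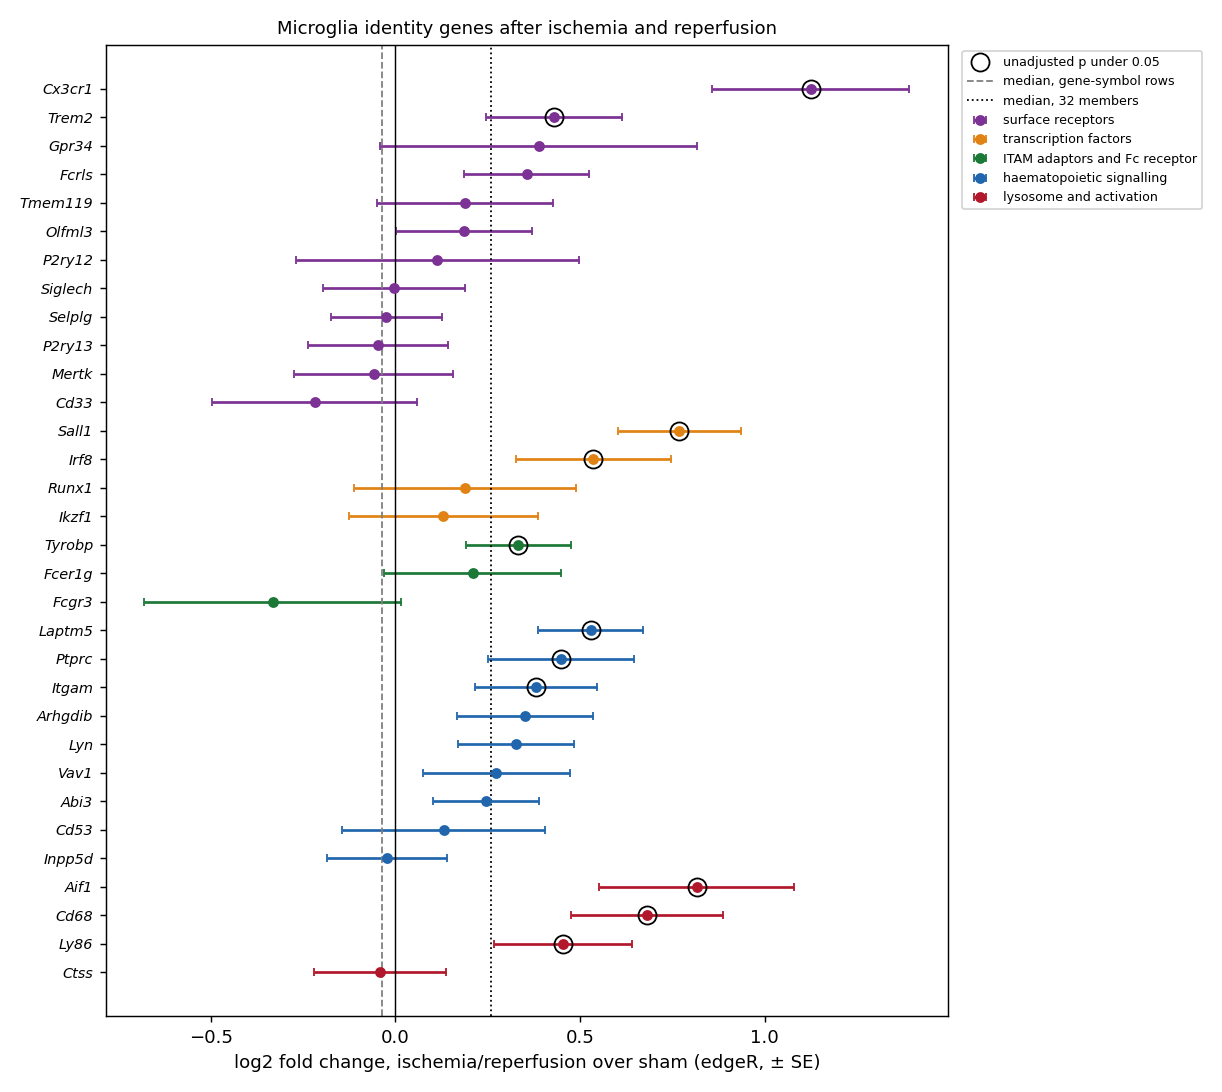
Log2 fold change of ischemia/reperfusion over sham for each of the 32 members, on the x axis, with its SE from edgeR as bars and 3 libraries a group; colours give the role, black rings mark an unadjusted p under 0.05, the dotted line is the members' median and the dashed line that of all gene-symbol rows. All 11 ringed members lie right of 0, and Cx3cr1 (1.13) lies farthest to the right, while the receptors from Siglech to Cd33 lie at or left of 0.

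The start regions of 6 members are shown because they set the members with the smallest p-values and a single RefSeq start beside P2ry12 and Ctss, whose fold changes were near 0. PU.1 binds letters of the type GAGGAAGT. Each sequence is the 250 bases before the start site, read 5′ to 3′ on the gene's strand from RefSeq (GRCm38.p6, the assembly behind mm10), and capitals mark GGAAGT or its reverse complement ACTTCC.
Cx3cr1, chr9:120068297-120068546, minus strand: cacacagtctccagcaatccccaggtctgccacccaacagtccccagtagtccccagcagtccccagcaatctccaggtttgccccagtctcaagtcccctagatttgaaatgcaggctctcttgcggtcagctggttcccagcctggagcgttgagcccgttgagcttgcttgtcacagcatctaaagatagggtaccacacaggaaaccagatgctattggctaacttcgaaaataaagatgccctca
Laptm5, chr4:130913066-130913315, plus strand: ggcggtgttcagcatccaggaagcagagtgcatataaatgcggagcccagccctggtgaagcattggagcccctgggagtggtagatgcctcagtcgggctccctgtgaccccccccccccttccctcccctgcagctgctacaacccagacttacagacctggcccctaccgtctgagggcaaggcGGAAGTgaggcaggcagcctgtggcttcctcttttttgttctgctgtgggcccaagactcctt
Cd68, chr11:69666171-69666420, minus strand: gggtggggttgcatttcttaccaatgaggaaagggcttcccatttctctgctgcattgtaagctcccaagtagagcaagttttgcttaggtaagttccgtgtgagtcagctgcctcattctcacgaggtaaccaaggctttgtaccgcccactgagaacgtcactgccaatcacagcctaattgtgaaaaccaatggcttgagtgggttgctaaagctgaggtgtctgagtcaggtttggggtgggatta
Aif1, chr17:35176053-35176302, minus strand: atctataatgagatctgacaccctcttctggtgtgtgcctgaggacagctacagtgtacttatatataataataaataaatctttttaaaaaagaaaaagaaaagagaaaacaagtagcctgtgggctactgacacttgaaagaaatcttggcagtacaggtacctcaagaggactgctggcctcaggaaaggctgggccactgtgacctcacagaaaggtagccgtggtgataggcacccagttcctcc
P2ry12, chr3:59262986-59263235, minus strand: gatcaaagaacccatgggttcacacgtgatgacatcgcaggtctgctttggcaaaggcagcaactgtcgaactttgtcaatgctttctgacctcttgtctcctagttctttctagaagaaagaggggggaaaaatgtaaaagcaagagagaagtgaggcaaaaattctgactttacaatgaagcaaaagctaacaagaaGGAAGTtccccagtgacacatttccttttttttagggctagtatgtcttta
Ctss, chr3:95526536-95526785, plus strand: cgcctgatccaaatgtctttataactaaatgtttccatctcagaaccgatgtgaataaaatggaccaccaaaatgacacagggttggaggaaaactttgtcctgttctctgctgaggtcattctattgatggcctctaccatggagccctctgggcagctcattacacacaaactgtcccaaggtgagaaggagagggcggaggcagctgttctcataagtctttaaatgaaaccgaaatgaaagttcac

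Of the 6 windows, those of Laptm5 and P2ry12 held 1 match each and the other 4 held 0. Of 32 members, 26 had a window in the RefSeq table. The letters GGAAGT, on either strand, were present in 10 of these 26 (38.5%), against 22.2% of all 27025 genes with a window. The longer AGGAAGT, which contains GGAAGT, was present in 7 members (26.9%), against 8.80% of all genes. The full GAGGAAGT, which contains both shorter strings, was present in 2 members, Inpp5d and Vav1 (7.69%), against 2.79% of all genes. The 3 strings were chosen after the members' fold changes were known. The median log2 fold change was 0.31 in the 10 members with GGAAGT and 0.20 in the 16 without it, and 0.35 with and 0.19 without AGGAAGT. For the full GAGGAAGT the order was the opposite, at 0.13 with and 0.28 without it. Of the 10 members with a window that had an unadjusted p under 0.05, 3 held GGAAGT, 2 AGGAAGT and 0 GAGGAAGT. A match here is a description of letters, and a window without one says nothing about binding elsewhere.

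Among levels per length, Ctss, the lysosomal protease cathepsin S, was highest at a mean of 26.5 RPKM over the 6 libraries, followed by the Fc receptor Fcgr3 at 12.7 RPKM and the adaptor Tyrobp at 10.9 RPKM. Next came the phagocytic receptors Mertk (8.86 RPKM) and Trem2 (7.71 RPKM), then Tmem119 (7.47 RPKM) and Fcrls (7.41 RPKM), and the ranges of these 4 neighbours over libraries overlapped. Cx3cr1 ranked lower, with a mean over all libraries of 4.22 RPKM. The lineage transcription factors were among the lowest, with Irf8 at 1.49 RPKM, Sall1 at 1.16 RPKM, Ikzf1 at 0.350 RPKM and Runx1 at 0.297 RPKM. Runx1 still had 70 counts or more in every library, so its position at the bottom does not rest on a few reads.

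**Figure D2:**
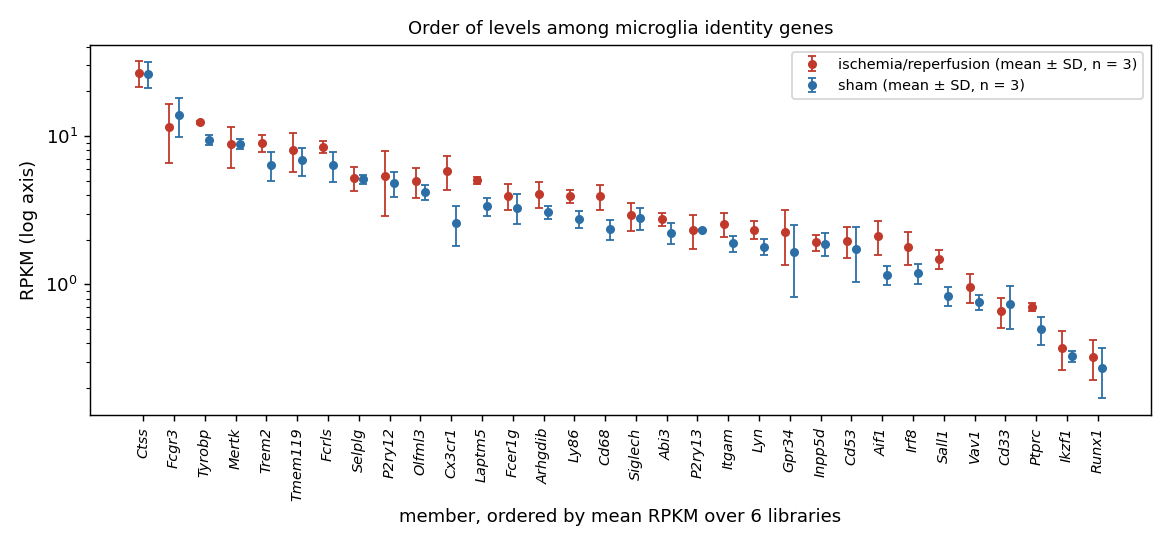
Mean RPKM on a log axis with SD (3 libraries a group) for each member, ischemia/reperfusion in red and sham in blue, ordered by the mean over all 6 libraries. The order runs from Ctss (26.5 RPKM) to Runx1 (0.297 RPKM), and the bars of many neighbours overlap.

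Among the 12 surface and secreted proteins of homeostatic microglia, 2 were higher at an unadjusted p under 0.05, Cx3cr1 and Trem2. That p rule held for 6.39% of gene-symbol rows and 8.73% of all rows. A log2 fold change above 0 was seen in 7 receptors (58.3%, median 0.15). This share is near the 53.1% of all rows, with 44.2% of gene-symbol rows. Cx3cr1 (chr9:120048683-120068296, minus strand) receives fractalkine from neurons. It had 4.22, 7.19 and 6.12 RPKM in ischemia/reperfusion replicates 1, 2 and 3, against 3.02, 1.68 and 3.05 RPKM in sham replicates 1, 2 and 3. The groups did not overlap, and the lowest library was sham replicate 2. Its log2 fold change was 1.13 ± 0.27 (SE), with an edgeR adjusted p of 0.168 and a DESeq2 adjusted p of 0.000692. Without ischemia/reperfusion replicate 1 edgeR called it (log2 fold change 1.31, adjusted p = 0.0403). That fit called 1057 of 40919 rows, where the fit on all 6 libraries called 1 of 40170. Without sham replicate 2 the log2 fold change of Cx3cr1 was 0.90, and over all alternatives its adjusted p ranged from 0.000692 to 0.501. The gene of fractalkine itself, Cx3cl1, named after its values were seen, overlapped between the groups (log2 fold change 0.03 ± 0.12, SE; edgeR adjusted p = 0.919).

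Trem2, a lipid-sensing receptor that signals through Tyrobp, had 9.45, 9.93 and 7.63 RPKM in ischemia/reperfusion replicates 1, 2 and 3, against 6.83, 7.61 and 4.82 RPKM in sham replicates 1, 2 and 3. The gap between the groups was narrow, with ischemia/reperfusion replicate 3 next to sham replicate 2. Its log2 fold change was 0.43 ± 0.18 (SE; edgeR adjusted p = 0.298). Fcrls, an Fc receptor-like protein, was the third member of this role whose groups did not overlap, at 7.60 to 9.04 RPKM in ischemia/reperfusion libraries and 4.68 to 7.28 RPKM in sham libraries.

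P2ry12 senses ADP released by damaged cells and directs microglial processes toward them. It had 2.62, 7.48 and 6.11 RPKM in ischemia/reperfusion replicates 1, 2 and 3, against 4.73, 3.95 and 5.79 RPKM in sham replicates 1, 2 and 3. Both the lowest and the highest library were in the ischemia/reperfusion group, a range of 2.85-fold, against 1.47-fold in sham. The log2 fold change was 0.11 ± 0.38 (SE; edgeR adjusted p = 0.911), and it was −0.21 without ischemia/reperfusion replicate 2 and 0.44 without ischemia/reperfusion replicate 1. Its neighbour P2ry13, another ADP receptor, had 1.76, 2.98 and 2.27 RPKM in ischemia/reperfusion replicates 1, 2 and 3 and 2.29, 2.35 and 2.33 RPKM in sham replicates 1, 2 and 3. Sham libraries of P2ry13 were nearly equal, and the ischemia/reperfusion libraries lay on both sides of them.

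Tmem119, a membrane protein used to tell microglia from infiltrating macrophages, had 5.49, 10.1 and 8.72 RPKM in ischemia/reperfusion replicates 1, 2 and 3, against 7.33, 5.18 and 8.04 RPKM in sham replicates 1, 2 and 3. Gpr34, a lysophosphatidylserine receptor, had 1.24, 2.98 and 2.55 RPKM in ischemia/reperfusion replicates 1, 2 and 3 and 1.39, 0.996 and 2.61 RPKM in sham replicates 1, 2 and 3. In both genes ischemia/reperfusion replicate 1 and sham replicate 2 were the lowest libraries. The spans of P2ry12 and P2ry13 lie inside Med12l and that of Gpr34 inside Cask, each on the opposite strand. The strand setting of the counting is not given, so some reads of these pairs may be mixed. Only whole spans were compared, and overlap of exons was not checked. In all, 5 gene rows on the same strand and 6 on the opposite strand, Cask among them, overlap Gpr34, so its counts are uncertain. Med12l and Cask had log2 fold changes of −0.10 ± 0.11 and −0.12 ± 0.10 (SE), with overlapping groups. P2ry12, P2ry13, Tmem119 and Gpr34 are given by library because of this variation, a choice made after their values were seen.

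The remaining receptors overlapped between the groups. Mertk, which recognises dying cells, had 9.70, 11.03 and 5.80 RPKM in ischemia/reperfusion replicates 1, 2 and 3 and 9.62, 8.23 and 8.78 RPKM in sham replicates 1, 2 and 3. Its lowest library, ischemia/reperfusion replicate 3, was also the one with the highest oligodendrocyte marker score (0.98, as the mean deviation of log2(CPM + 0.1) from the average of the 6 libraries, where CPM is the count scaled to 1e+06 per library). Astrocyte markers, of a cell that transcribes Mertk, scored 0.03, −0.26 and −0.07 in ischemia/reperfusion replicates 1, 2 and 3. In sham replicates 1, 2 and 3 they scored 0.04, 0.13 and 0.13. Their lowest score was thus in ischemia/reperfusion replicate 2, where Mertk was highest. The part of tissue composition in the Mertk values was not tested. Cd33, an inhibitory receptor for sialic acid, had 0.641, 0.818 and 0.514 RPKM in ischemia/reperfusion replicates 1, 2 and 3 and 0.650, 1.00 and 0.557 RPKM in sham replicates 1, 2 and 3. It had the lowest log2 fold change of the role (−0.22 ± 0.28, SE). Siglech, Selplg and Olfml3 had log2 fold changes of −0.0041, −0.02 and 0.19, and the signs of Siglech and Selplg turned with upper-quartile factors.

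**Figure D3:**
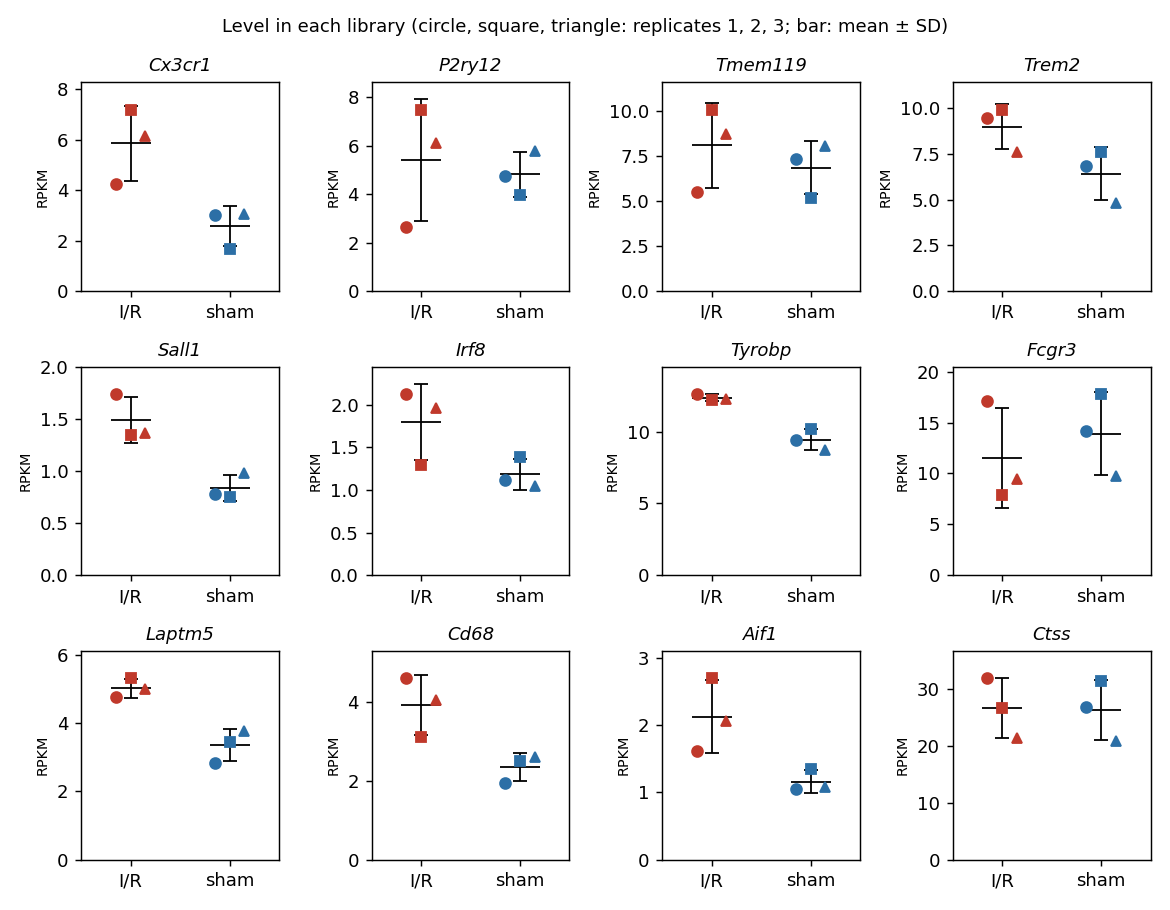
RPKM of 12 members in each library, ischemia/reperfusion left of sham, with circles, squares and triangles for replicates 1, 2 and 3 and bars for the mean and SD. Cx3cr1, Trem2, Sall1, Tyrobp, Laptm5, Cd68 and Aif1 show groups that do not overlap, whereas P2ry12 runs from 2.62 to 7.48 RPKM within the ischemia/reperfusion group.

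All 4 transcription factors with a row had a positive log2 fold change, as had 44.2% of gene-symbol rows and 53.1% of all rows. Sall1 and Irf8 were higher at an unadjusted p under 0.05, as were 6.39% of gene-symbol rows and 8.73% of all rows. Sall1 (chr8:89027243-89044162, minus strand) maintains the microglial state. It had 1.74, 1.35 and 1.37 RPKM in ischemia/reperfusion replicates 1, 2 and 3, against 0.781, 0.751 and 0.981 RPKM in sham replicates 1, 2 and 3. Each ischemia/reperfusion library was above each sham library, and the log2 fold change was 0.77 ± 0.17 (SE), with adjusted p of 0.148 in edgeR and 0.0104 in DESeq2. Over all alternatives its adjusted p ranged from 0.0104 to 0.501 and, leaving out each library in turn, its log2 fold change from 0.64 to 0.88.

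Irf8, which acts with PU.1 in microglial development, had 2.13, 1.29 and 1.96 RPKM in ischemia/reperfusion replicates 1, 2 and 3, against 1.12, 1.39 and 1.05 RPKM in sham replicates 1, 2 and 3. Ischemia/reperfusion replicate 2 lay below sham replicate 2, so the groups overlapped (log2 fold change 0.54 ± 0.21, SE; edgeR adjusted p = 0.263). Ikzf1, the lymphoid and myeloid factor Ikaros, had 0.247, 0.424 and 0.448 RPKM in ischemia/reperfusion replicates 1, 2 and 3 and 0.296, 0.334 and 0.353 RPKM in sham replicates 1, 2 and 3. Runx1 also overlapped, with 0.212 to 0.397 RPKM in ischemia/reperfusion libraries and 0.194 to 0.383 RPKM in sham libraries.

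A row named Sfpi1 lies on chromosome 2 from 91096797 to 91115756, within the span that RefSeq gives to Spi1, and RefSeq lists Sfpi1 as a synonym of Spi1. The row is therefore given here beside the 32 members and is not counted among them. It had 2.18, 1.50 and 1.57 RPKM in ischemia/reperfusion replicates 1, 2 and 3, against 0.966, 0.998 and 0.890 RPKM in sham replicates 1, 2 and 3. The sham libraries were close together and all lay below the ischemia/reperfusion libraries. The log2 fold change was 0.82 ± 0.23 (SE), with an adjusted p of 0.176 in edgeR and 0.0958 in DESeq2.

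Tyrobp and Fcer1g are adaptors that carry the signals of Trem2 and of Fc receptors through ITAM motifs. Tyrobp had 12.6, 12.2 and 12.3 RPKM in ischemia/reperfusion replicates 1, 2 and 3, against 9.42, 10.2 and 8.71 RPKM in sham replicates 1, 2 and 3. Its ischemia/reperfusion libraries agreed within 1.04-fold and lay above all sham libraries (log2 fold change 0.33 ± 0.14, SE; edgeR adjusted p = 0.295). Fcer1g overlapped between the groups, at 3.08 to 4.66 RPKM in ischemia/reperfusion libraries and 2.49 to 3.98 RPKM in sham libraries.

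Fcgr3, a receptor for the constant part of IgG, had the lowest log2 fold change of all members, −0.33 ± 0.35 (SE; edgeR adjusted p = 0.686). It had 17.2, 7.90 and 9.50 RPKM in ischemia/reperfusion replicates 1, 2 and 3, against 14.2, 17.8 and 9.71 RPKM in sham replicates 1, 2 and 3. Ischemia/reperfusion replicate 1 and sham replicate 2 were the highest libraries, and the groups overlapped. Without ischemia/reperfusion replicate 1 the log2 fold change was −0.74, with an edgeR adjusted p of 0.153, and over all alternatives the adjusted p ranged from 0.153 to 0.927. Fcgr3 resembles other low-affinity Fc receptor genes in sequence, so the division of reads among them is uncertain. Border-associated macrophage markers, of which 10 of 10 had counts, scored 0.34 in ischemia/reperfusion replicate 1 and 0.25 in sham replicate 2, the 2 libraries with the highest Fcgr3, and −0.20 to −0.05 in the other 4. Their summed level was 6.12 to 8.404 RPKM in ischemia/reperfusion libraries and 5.80 to 9.41 RPKM in sham libraries, and their part in the Fcgr3 values was not tested. Only 8 of the 10 passed the low-count filter, and the score includes the others. Clec12a, which did not pass, had 28 counts in ischemia/reperfusion replicate 1 and 0 to 5 in the other libraries. Pf4 had 67 counts in sham replicate 2 and 2 to 38 in the others. Members Ctss, Cd53 and Runx1 were also highest in these 2 libraries.

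Among the 9 members of haematopoietic signalling and cytoskeleton, 8 had a log2 fold change above 0 (median 0.33). So had 44.2% of gene-symbol rows and 53.1% of all rows. Laptm5, Ptprc and Itgam, 3 of the 9, were higher at an unadjusted p under 0.05, as were 6.39% of gene-symbol rows and 8.73% of all rows. Laptm5 (chr4:130913334-130936148, plus strand), a lysosomal membrane protein of blood-derived cells, had 4.77, 5.33 and 4.99 RPKM in ischemia/reperfusion replicates 1, 2 and 3, against 2.84, 3.47 and 3.76 RPKM in sham replicates 1, 2 and 3. The groups were separated by more than the range within the ischemia/reperfusion group. The log2 fold change was 0.53 ± 0.14 (SE), with an adjusted p of 0.168 in edgeR and 0.0638 in DESeq2.

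Ptprc, the phosphatase CD45 of all leukocytes, had 0.752, 0.685 and 0.680 RPKM in ischemia/reperfusion replicates 1, 2 and 3, against 0.380, 0.590 and 0.520 RPKM in sham replicates 1, 2 and 3. Itgam, the integrin chain CD11b, had 2.06, 2.99 and 2.60 RPKM in ischemia/reperfusion replicates 1, 2 and 3, against 1.61, 2.03 and 2.02 RPKM in sham replicates 1, 2 and 3. In both genes the groups were apart by a narrow margin, and their log2 fold changes were 0.45 ± 0.20 and 0.38 ± 0.17 (SE), with edgeR adjusted p of 0.306 and 0.301. Arhgdib also did not overlap, at 3.53 to 4.998 RPKM in ischemia/reperfusion libraries and 2.74 to 3.35 RPKM in sham libraries.

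Inpp5d, the lipid phosphatase SHIP1 that opposes ITAM signalling, was the 1 member of this role with a negative log2 fold change (−0.02 ± 0.16, SE; 0.02 with upper-quartile factors). It had 1.73, 2.20 and 1.84 RPKM in ischemia/reperfusion replicates 1, 2 and 3 and 1.52, 1.96 and 2.16 RPKM in sham replicates 1, 2 and 3. The Src-family kinase Lyn, the exchange factor Vav1, the tetraspanin Cd53 and the actin regulator Abi3 overlapped between the groups, with log2 fold changes of 0.33, 0.27, 0.13 and 0.25. The span of Abi3 overlaps Gngt2 and Phospho1 on the opposite strand, so some of their reads may be mixed. Overlap of their exons was not checked.

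Of 15 markers of neutrophils and monocytes 13 had a row and counts, and the summed level was 16.3 to 27.9 RPKM in ischemia/reperfusion libraries and 7.13 to 13.1 RPKM in sham libraries. Of 9 that passed the low-count filter, 4 were higher at an unadjusted p under 0.05 and 0 were lower. Among gene-symbol rows tested, 6.39% were higher and 8.71% lower by that rule. In edgeR 0 of the 9 passed an adjusted p of 0.05, and S100a8, S100a9 and Csf3r had the smallest p-values (log2 fold changes 1.11, 1.26 and 0.67). DESeq2 called S100a8 and S100a9 higher, at adjusted p of 0.0211 and 0.00753. The score of the neutrophil and monocyte markers was 0.00, 0.46 and 0.57 in ischemia/reperfusion replicates 1, 2 and 3 and −0.23, −0.05 and −0.75 in sham replicates 1, 2 and 3. The score was above all sham scores in each ischemia/reperfusion library. Ccr2, which marks inflammatory monocytes, had 41, 48 and 10 counts in ischemia/reperfusion replicates 1, 2 and 3 and 29, 56 and 12 counts in sham replicates 1, 2 and 3. The part of blood leukocytes in the level of the shared genes was not tested. Lymphocyte markers (12 of 12 with counts) summed to 1.64 to 2.48 RPKM in ischemia/reperfusion libraries and 0.753 to 1.44 RPKM in sham libraries. Only 2 of them, Lck and Cd4, passed the low-count filter. Lck had 79, 65 and 62 counts in ischemia/reperfusion replicates 1, 2 and 3, against 50, 37 and 50 counts in sham replicates 1, 2 and 3. Its groups did not overlap, and it was higher at an unadjusted p under 0.05 (log2 fold change 0.60 ± 0.24, SE, edgeR adjusted p = 0.284). Cd4 overlapped between the groups, with 204, 41 and 70 counts in ischemia/reperfusion replicates 1, 2 and 3 and 45, 16 and 109 counts in sham replicates 1, 2 and 3.

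Of the 4 members of lysosome and activation, Cd68, Ly86 and Aif1 were higher at an unadjusted p under 0.05, with groups that did not overlap. The p rule held for 6.39% of gene-symbol rows and 8.73% of all rows. Ischemia/reperfusion libraries lay wholly above sham in 10.3% of gene-symbol rows and 14.0% of all rows. Aif1, which bundles actin in motile microglia and is the usual stain for them, had 1.62, 2.70 and 2.06 RPKM in ischemia/reperfusion replicates 1, 2 and 3, against 1.06, 1.35 and 1.08 RPKM in sham replicates 1, 2 and 3. Its counts were 69 to 109 in ischemia/reperfusion libraries and 46 to 57 in sham libraries, so its log2 fold change of 0.82 ± 0.26 (SE; edgeR adjusted p = 0.211) rests on few reads. Cd68, a lysosomal glycoprotein of phagocytes, had 4.62, 3.12 and 4.06 RPKM in ischemia/reperfusion replicates 1, 2 and 3, against 1.94, 2.51 and 2.62 RPKM in sham replicates 1, 2 and 3. Its log2 fold change was 0.68 ± 0.21 (SE; edgeR adjusted p = 0.195).

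Ly86, the partner of a Toll-like receptor homologue, had 3.55, 4.37 and 3.86 RPKM in ischemia/reperfusion replicates 1, 2 and 3, against 2.56, 3.19 and 2.52 RPKM in sham replicates 1, 2 and 3. The log2 fold change was 0.45 ± 0.19 (SE; edgeR adjusted p = 0.285). Ctss, the most abundant member, had 31.9, 26.7 and 21.3 RPKM in ischemia/reperfusion replicates 1, 2 and 3 and 26.8, 31.3 and 20.8 RPKM in sham replicates 1, 2 and 3. Both groups covered almost the same range, and the log2 fold change was −0.04 ± 0.18 (SE; edgeR adjusted p = 0.928; above 0 with gene-symbol rows only).

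Over the 6 libraries, the library with the highest level differed between most receptors and most other members. Of the 12 surface receptors, 11 had their highest level in ischemia/reperfusion replicate 2, and 4, P2ry12, P2ry13, Selplg and Olfml3, had their lowest in ischemia/reperfusion replicate 1. Of the 20 other members, 11 had their highest level in ischemia/reperfusion replicate 1 and 5 in replicate 2. The mean score of the receptors was −0.20, 0.45 and 0.12 in ischemia/reperfusion replicates 1, 2 and 3 and −0.14, −0.20 and −0.02 in sham replicates 1, 2 and 3. For the other 20 members it was 0.29, 0.11 and 0.15 in ischemia/reperfusion replicates 1, 2 and 3 and −0.29, −0.01 and −0.24 in sham replicates 1, 2 and 3. Groups thus overlapped in the receptor score and not in the score of the others; the difference between the 2 scores was not tested.

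Ratios of counts between members within a library do not depend on scaling between libraries. The ratio of Cx3cr1 to P2ry12 counts was 2.58, 1.54 and 1.61 in ischemia/reperfusion replicates 1, 2 and 3, against 1.03, 0.685 and 0.846 in sham replicates 1, 2 and 3. Relative to Tmem119, Cx3cr1 counts stood at 1.39, 1.29 and 1.27 in ischemia/reperfusion replicates 1, 2 and 3, against 0.744, 0.587 and 0.686 in sham replicates 1, 2 and 3. Both ratios were higher in every ischemia/reperfusion library than in every sham library. The ratio of Fcgr3 to P2ry12 counts, in contrast, was 3.78, 0.611 and 0.900 in ischemia/reperfusion replicates 1, 2 and 3 and 1.73, 2.61 and 0.970 in sham replicates 1, 2 and 3, and overlapped between the groups. These ratios were chosen after the values were seen and are given without a test.

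**Figure D4:**
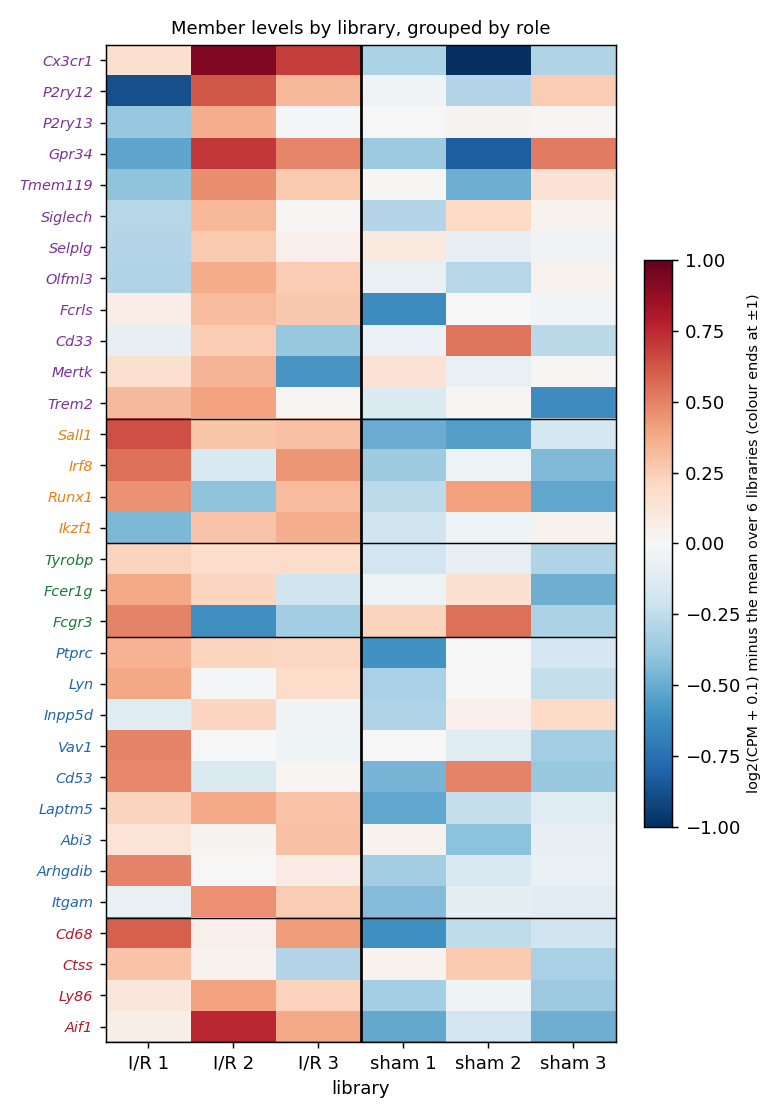
Deviation of log2(CPM + 0.1) from the mean over the 6 libraries for each member (rows, coloured by role) and library (columns, ischemia/reperfusion left of the line). Of the 12 receptors, 8 are below 0 in ischemia/reperfusion replicate 1, and of the 20 other members 9 are above 0 in all 3 ischemia/reperfusion libraries.

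A wider list of 39 microglial genes and signalling partners outside the set held 7 higher and 2 lower genes by unadjusted p under 0.05, and its median log2 fold change was 0.13. By the same rule, 6.39% of gene-symbol rows tested were higher and 8.71% lower. The smallest p-values of the list were those of Golm1, Csf1 and Hpgds. Golm1, a Golgi membrane protein, had 10.1, 10.6 and 10.7 RPKM in ischemia/reperfusion replicates 1, 2 and 3, against 14.5, 13.5 and 14.2 RPKM in sham replicates 1, 2 and 3. Hpgds, the haematopoietic prostaglandin D synthase, had 1.54, 1.46 and 1.52 RPKM in ischemia/reperfusion replicates 1, 2 and 3, against 0.915, 1.07 and 0.850 RPKM in sham replicates 1, 2 and 3. Csf1 was at 4.73 to 5.16 RPKM in ischemia/reperfusion libraries and 3.17 to 3.48 RPKM in sham libraries. DESeq2 called Golm1 lower and Csf1 higher, and edgeR called 0 of the 39.

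Of 19 genes of activated or disease-associated microglia, 3 were higher and 1, Apoe, was lower by unadjusted p under 0.05, with a median log2 fold change of 0.15. By that rule 6.39% of gene-symbol rows tested were higher and 8.71% lower. Clec7a, a receptor for fungal glucans, had 14, 24 and 32 counts in ischemia/reperfusion replicates 1, 2 and 3, against 2, 6 and 8 counts in sham replicates 1, 2 and 3. Itgax, the integrin chain CD11c, had 17, 19 and 15 counts in ischemia/reperfusion replicates 1, 2 and 3, against 7, 3 and 5 counts in sham replicates 1, 2 and 3. Every ischemia/reperfusion library was above every sham library in both genes, on fewer counts than any identity gene had. Apoe, a lipid carrier made mostly by astrocytes, had 1233, 1040 and 1003 RPKM in ischemia/reperfusion replicates 1, 2 and 3, against 1317, 1299 and 1256 RPKM in sham replicates 1, 2 and 3. Of 9 astrocyte markers (9 of 9 with counts), 3 were lower and 0 higher by unadjusted p under 0.05, Gjb6, Aldoc and Glul (log2 fold changes −0.64, −0.39 and −0.34). Their summed level was 1281 to 1461 RPKM in ischemia/reperfusion libraries and 1496 to 1614 RPKM in sham libraries, and their part in the Apoe values was not tested.

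**Figure D5:**
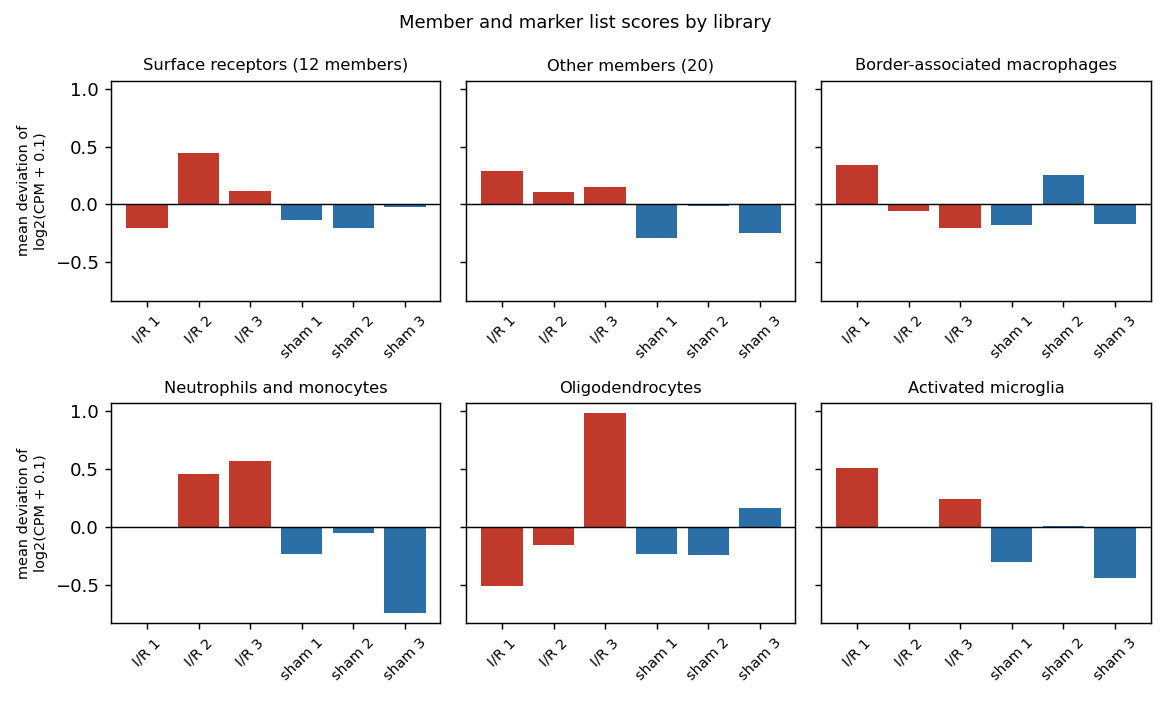
Mean deviation of log2(CPM + 0.1) from the average of the 6 libraries, for 2 sets of members and 4 marker lists, with 1 bar per library (red ischemia/reperfusion, blue sham). The receptor bars of ischemia/reperfusion run from −0.20 to 0.45 and overlap those of sham, the bars of the other 20 members do not, and the border-associated macrophage bars are highest in ischemia/reperfusion replicate 1 and sham replicate 2.

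The table also holds rows for cDNA clones that overlap these genes. On the same strand, 36 clone rows overlapped the spans of 14 members, some of them reaching beyond the gene, and 15 of these rows passed the low-count filter. Of the 15, 14 had a log2 fold change above 0, as had 53.1% of all rows tested. Only 1, fantom3_D730008G07 in Mertk, was higher at an unadjusted p under 0.05, as were 8.73% of all rows. This clone had 40, 122 and 43 counts in ischemia/reperfusion replicates 1, 2 and 3, against 40, 26 and 29 counts in sham replicates 1, 2 and 3 (edgeR adjusted p = 0.272). Some clone rows may count reads of the gene's own row again, so they are no separate evidence on it.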

How the data were processed

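Libraries of mouse brain total RNA were depleted of ribosomal RNA, made into NEBNext Ultra libraries and read from both ends (Illumina HiSeq), per the labels' protocols. The build was mm10, per the submitters' processing notes; the sources used here name no aligner, counter, annotation or strand setting. Counts, as deposited, are whole and not normalised. The deposited RPKM values equal counts per kilobase and per 1e+06 counts of the column in 100% of values (relative tolerance 0.001). The authors' comparison table holds mean RPKM, a log2 fold change, p-values and q-values, as deposited, from a test not given; row length is another deposited value.

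Counts of all rows were tested with edgeR 4.0.16 (TMM, filterByExpr, robust quasi-likelihood F test, two-sided, R 4.3.3); adjusted p-values cover 40170 rows, and the SE is the log2 fold change over the square root of F. Fits were tested on simulated data. Levels are deposited RPKM without TMM factors. A floor of 3 counts was 0.0604 to 0.0660 CPM. Alternatives were RLE and upper-quartile factors, other filters, DESeq2 1.42.0, limma-voom 3.58.1, no robust estimation, gene-symbol rows only, a replicate block and leaving out each library. Members, lists and the naming rule (members with an unadjusted p under 0.05 and, per role, those with the smallest p, the highest level and the lowest log2 fold change) were chosen with earlier results of these data known. Of 26 members with a RefSeq promoter window, those with several starts were scored over all.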

Additional observations from a re-analysis of the deposited data

How the results depend on the processing

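No member passed an adjusted p of 0.05 in edgeR with RLE factors, upper-quartile factors, all rows with any count, rows averaging at least 1 CPM, no robust estimation or gene-symbol rows only, nor in limma-voom. DESeq2 called 2 (10 higher at an unadjusted p under 0.05), and leaving out 1 library gave 0 to 1. The 1 call came without ischemia/reperfusion replicate 1, a fit that called 1057 of 40919 rows. Leaving out any other library gave 0 to 43 called rows. Leaving out 1 library gave 5 to 14 members higher and 0 to 1 lower at an unadjusted p under 0.05, and a median log2 fold change of 0.24 to 0.37; other alternatives gave 9 to 13 higher and a median of 0.25 to 0.30. Some directions near 0 turned with the test, the rows fitted or the scaling. P2ry12 was at −0.017 in limma-voom, and Ctss at 0.0019 on gene-symbol rows only. With upper-quartile factors, a mean of at least 1 CPM and gene-symbol rows only, Siglech was at 0.041, 0.029 and 0.041, Selplg at 0.020, 0.0092 and 0.020 and Inpp5d at 0.021, 0.011 and 0.022. Leaving out 1 library, the log2 fold change ran from −0.21 to 0.44 for P2ry12, −0.28 to 0.12 for P2ry13, −0.015 to 0.40 for Tmem119, −0.19 to 0.13 for Siglech, −0.17 to 0.11 for Selplg, −0.42 to 0.075 for Cd33, −0.27 to 0.17 for Mertk, −0.014 to 0.53 for Runx1, −0.017 to 0.35 for Ikzf1, −0.16 to 0.073 for Inpp5d, −0.079 to 0.52 for Cd53 and −0.20 to 0.11 for Ctss. The cause was not tested. Same-numbered libraries share only a number: deviations of pairs 1, 2 and 3 correlated at −0.09, 0.03 and 0.16, and ischemia/reperfusion replicates 1 and 2 correlated best with another number. With the replicate block 0 members passed and 9 were higher at an unadjusted p under 0.05, with a median of 0.26. With 3 libraries a group, a p above the threshold does not show that a gene did not differ.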
